A study of Mus musculus with 1 sample.

Results

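Poly(A) tails were described for 7 mouse genes that link pluripotency with the germline, namely Dppa2, Dppa3, Dppa4, Dppa5a, Tex19.1, Mael and Trim28. They were chosen by name, by a rule that used no tail length, although earlier results of these data were known. A read was kept when it had at least 7 sequencing passes and its gene identifier carried one of these symbols in the GENCODE vM21 annotation. The 7 genes held 3844 of 803537 reads assigned to 12842 genes. Among the 701976 reads of 12816 nuclear genes they made up 0.548%.

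The study examined deadenylation while cells leave naïve pluripotency for the formative state. The 1 sample analysed here was wild type, of the ICR strain, and was collected 24 h after embryonic stem cells (ESCs) began to differentiate into epiblast-like cells (24h-EpiLCs) on Matrigel, in N2B27 medium with activin A, bFGF and KSR. PAIso-seq, which copies whole transcripts with their tails and reads them in circles on the PacBio platform, gave 2 barcoded replicates. Replicates 1 and 2 are numbered here by barcode because the labels do not tie a barcode to a replicate, the study calls its replicates independent without saying whether they were separate cultures, and cells without Cnot8 were not analysed here. With 1 group there was no test, and differences between genes are set against the spread between the replicates.

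A poly(A) tail protects an mRNA and helps its translation, and its removal by deadenylases such as the Ccr4-Not complex often starts mRNA decay. Dppa2 and Dppa4 are SAP domain proteins that bind chromatin together and help to activate genes of the 2-cell embryo. Dppa3, also called Stella, restrains the DNA methylation machinery through Uhrf1, and Dppa5a has a KH domain of the kind found in RNA-binding proteins. Tex19.1 and Mael act in the germline against retrotransposons, Mael in the piRNA pathway. Trim28, also called KAP1, is the corepressor that KRAB zinc finger proteins bring to retrotransposons and imprinted regions.

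Some tails held bases other than A, and the following tails show both forms that are counted later. Each is the read with the most passes among tails of 15 to 60 nt of its form, written 5′ to 3′ with every base other than A in capitals. A U of the RNA appears as T, as in the deposited table. The first 3 end in T, and the Trim28 tail among them also holds a G before its end. The last 4 hold another base before the end, which in the Trim28 tail is the first base. Whether that base belongs to the tail or to the transcript was not tested.
Trim28, replicate 1, 23 nt, 288 passes: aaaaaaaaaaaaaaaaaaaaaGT
Tex19.1, replicate 2, 19 nt, 10 passes: aaaaaaaaaaaaaaaaaaT
Dppa4, replicate 2, 37 nt, 90 passes: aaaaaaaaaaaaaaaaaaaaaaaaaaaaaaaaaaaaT
Trim28, replicate 1, 27 nt, 229 passes: Taaaaaaaaaaaaaaaaaaaaaaaaaa
Dppa2, replicate 2, 37 nt, 182 passes: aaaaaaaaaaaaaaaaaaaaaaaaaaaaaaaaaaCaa
Dppa4, replicate 2, 45 nt, 196 passes: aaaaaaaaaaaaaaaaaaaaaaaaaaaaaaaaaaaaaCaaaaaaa
Dppa5a, replicate 1, 53 nt, 172 passes: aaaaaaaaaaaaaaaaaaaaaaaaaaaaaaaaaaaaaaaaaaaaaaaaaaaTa

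Replicate 1 held 246316 reads of nuclear genes and replicate 2 held 455660, so that 3 reads made up 0.00122% and 0.000658% of them. Markers were then set against the labelled cell type, in RPM, the reads of a gene scaled to 1000000 nuclear reads. Reads came from 7 of 7 pluripotency genes (2314 and 1659 RPM in replicates 1 and 2) and from 5 of 5 formative genes (982 and 790 RPM). Dnmt3b was in both lists. It held 148 of the 242 formative reads in replicate 1 and 151 of 360 in replicate 2. Of 8 naïve genes, 7 had reads (658 and 937 RPM). Of 7 markers of fibroblast feeder cells, 2 had reads (3 in replicate 1 and 1 in replicate 2), and Col1a1, Col1a2, Col3a1, Postn and Lum were at 0. Of 7 primordial germ cell markers, 5 had reads (77.1 and 54.9 RPM), while Prdm14 and Nanos3 were at 0. Primitive endoderm markers had 0 and 4 reads, and those of the primitive streak 3 and 2.

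Tail lengths of the 7 genes were compared first. The tail of a gene was its geometric mean over reads, in nt, for genes with at least 10 reads in both replicates together. The median over 7146 such nuclear genes was 76.4 nt, with quartiles of 62.4 and 88.6 nt. From the shortest, the members came in the order Dppa2 (66.6 nt), Trim28 (76.4), Tex19.1 (79.2), Dppa4 (86.8), Dppa5a (92.4) and Dppa3 (106.8), and Mael had too few reads to be placed. Dppa2 and Dppa5a thus stood on opposite sides of the median, with Trim28 on it. Of 5 members with at least 10 reads in each replicate, 1 (Dppa2) was below the gene median in both replicates, as were 35.0% of 4286 genes. Above the median in both were 2 members (Dppa4 and Dppa5a), again beside 35.0% of genes. The median of the 6 members placed minus that of all genes was 6.63 nt. Dppa3 had fewer than 10 reads in either replicate, so a single replicate left 5 members, with Tex19.1 as their median. Tex19.1 stood 2.82 nt above the gene median over pooled reads, 4.64 nt above it without replicate 1, and at -1.86 nt without replicate 2. The sign for these 5 members thus rested on Tex19.1 alone, and the side of the group as a whole was not settled.

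**Figure D1:**
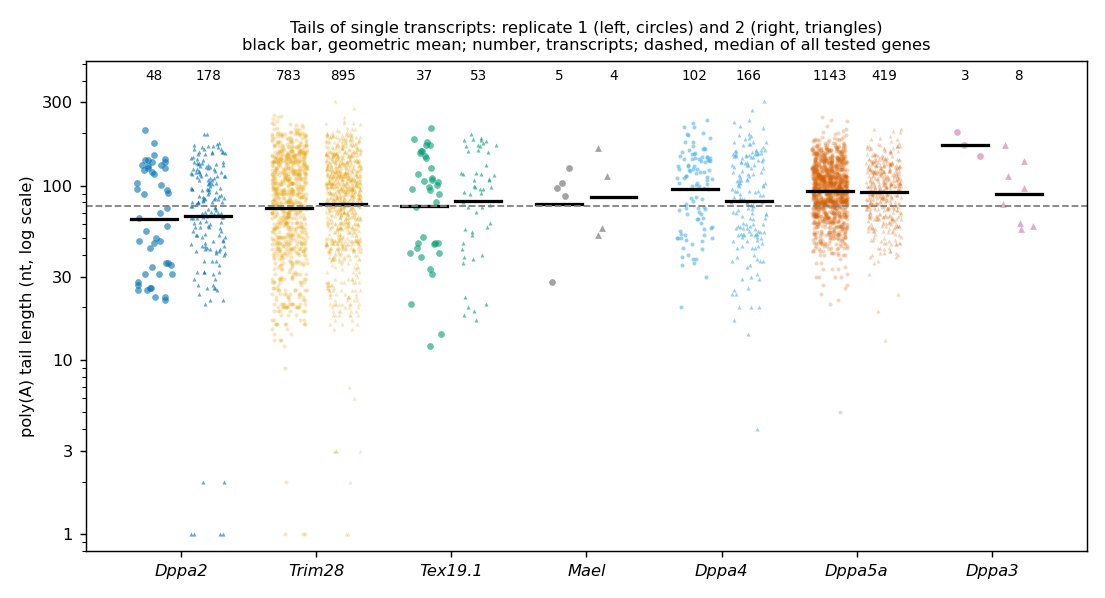
Tail length in nt (log scale) of each read of the 7 genes, ordered by tail length, with replicate 1 as circles and replicate 2 as triangles. Black bars are geometric means, numbers are reads, and the dashed line is the median of 76.4 nt over 7146 genes. The bars of Dppa2 lie below the line in both replicates and those of Dppa4 and Dppa5a above it.

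Dppa2 and Dppa4 encode the partner proteins, and their genes lie next to each other on the plus strand of chromosome 16. Dppa2 (ENSMUSG00000072419) spans GRCm38 chr16:48303908-48319723 and Dppa4 (ENSMUSG00000058550) chr16:48283733-48294237. The Dppa2 tail was 64.2 nt in replicate 1 (48 reads) and 67.3 nt in replicate 2 (178 reads), or 65.8 nt ± 2.14 (SD, n = 2). The Dppa4 tail was 95.1 nt (102 reads) and 82.1 nt (166 reads), or 88.6 nt ± 9.16 (SD, n = 2). Dppa4 was the longer in both replicates, by 30.8 and 14.8 nt (22.8 nt ± 11.3, SD, n = 2). The medians of the reads differed by 42 nt in replicate 1 and by only 7 nt in replicate 2, so the size of the gap was poorly fixed.

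The reads of Dppa2 reached from 22 to 209 nt in replicate 1, with a median of 67.5 nt, and from 1 to 198 nt in replicate 2, with a median of 81 nt. Its middle portion lay between the quartiles 33.25 and 126.25 nt in replicate 1 and 49.5 and 118.75 nt in replicate 2. Short tails were frequent in replicate 1. Tails of 1 to 30 nt made up 18.8% of Dppa2 reads in replicate 1 (95% Wilson interval 10.2 to 31.9) and 10.1% in replicate 2 (6.49 to 15.4), against 10.1% and 10.8% of all nuclear reads. Tails of 1 to 5 nt were 6 of 178 reads in replicate 2 and 0 of 48 in replicate 1, which allows up to 7.41%. Among tails of at least 15 nt the Dppa2 mean was 74.2 nt, still under the gene median of 83.1 nt taken in the same way.

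Dppa4 reads reached from 20 to 238 nt in replicate 1, with a median of 109.5 nt, and from 4 to 305 nt in replicate 2, with a median of 88 nt. Tails of 1 to 30 nt were 1.96% of its reads in replicate 1 (0.539 to 6.87) and 7.83% in replicate 2 (4.63 to 12.9). Short Dppa4 tails were thus rarer in replicate 1, where they numbered 2 of 102 reads, than in replicate 2, with 13 of 166. Tails over 150 nt were 18.6% and 19.3% of Dppa4 reads but 4.17% (1.15 to 14) and 11.2% (7.39 to 16.7) of Dppa2 reads. In all nuclear reads that class was 16.1% and 15.3%.

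Genes of the 2-cell stage that the pair is known to regulate were almost without reads. Of 10 such genes, 9 were at 0 in both replicates, among them Duxf3, Zfp352 and Tcstv1. The exception was Zscan4f, with 2 reads in replicate 1 and 0 in replicate 2. At this depth 3 reads would have been 12.2 RPM in replicate 1. Several of the 10 belong to the Zscan4 family, and whether their reads had gone to similar genes or to none was not tested.

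Dppa5a (ENSMUSG00000060461) lies at GRCm38 chr9:78367052-78368177 on the minus strand, and its longest annotated transcript has 619 nt. Its tail was 92.6 nt in replicate 1 (1143 reads) and 91.8 nt in replicate 2 (419 reads), or 92.2 nt ± 0.607 (SD, n = 2). The replicate means thus lay closer together than those of any other member. It exceeded Dppa2 by 28.4 and 24.5 nt (26.4 nt ± 2.75, SD, n = 2) and Trim28 by 18.5 and 13.3 nt (15.9 nt ± 3.67). Against Dppa4 the sign changed, with -2.44 nt in replicate 1 and 9.66 nt in replicate 2, so these neighbours in the order did not differ beyond the spread between replicates.

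Tails of Dppa5a were narrowly spread. In replicate 1 they ran from 5 to 248 nt, with quartiles of 75 and 120 nt, and in replicate 2 from 13 to 212 nt, with quartiles of 72 and 122.5 nt. The SD of log2 tail length was 0.551 and 0.573, against 1.06 and 0.982 for Trim28. Among 1517 genes with at least 100 reads the pooled SD of 0.557 was the 29th lowest, and their median was 1.01. Both ends of the range were thin. Tails of 1 to 30 nt made up 0.962% of Dppa5a reads in replicate 1 (0.538 to 1.72) and 0.716% in replicate 2 (0.244 to 2.08), and tails over 150 nt 8.57% (7.09 to 10.3) and 8.11% (5.86 to 11.1). Genes with short transcripts had narrow tails in general. Among the 174 genes with at least 100 reads and a longest transcript under 1000 nt, the median SD was 0.694 and the median share of tails of 1 to 30 nt was 1.96%. Within that set Dppa5a stood at percentile 12.1 for the SD, 26.4 for the short tails and 35.6 for the mean tail.

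**Figure D2:**
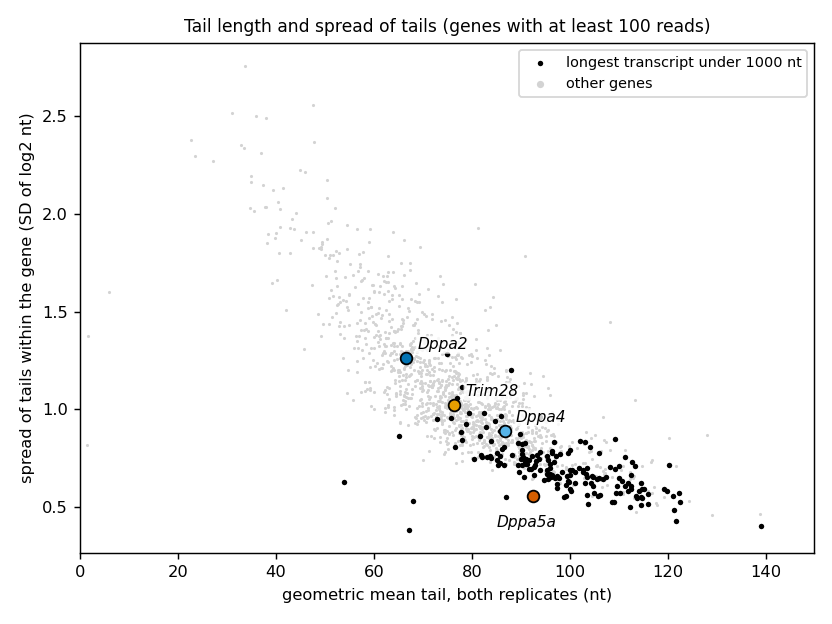
Spread of tails within a gene (SD of log2 nt) against its geometric mean tail (nt) for 1517 genes with at least 100 reads in both replicates together, with genes whose longest transcript is under 1000 nt in black and the 4 members with enough reads named. Dppa5a lies at 0.557 among the short-transcript genes, and Dppa2 at 1.26 above the median of 1.01.

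**Figure D3:**
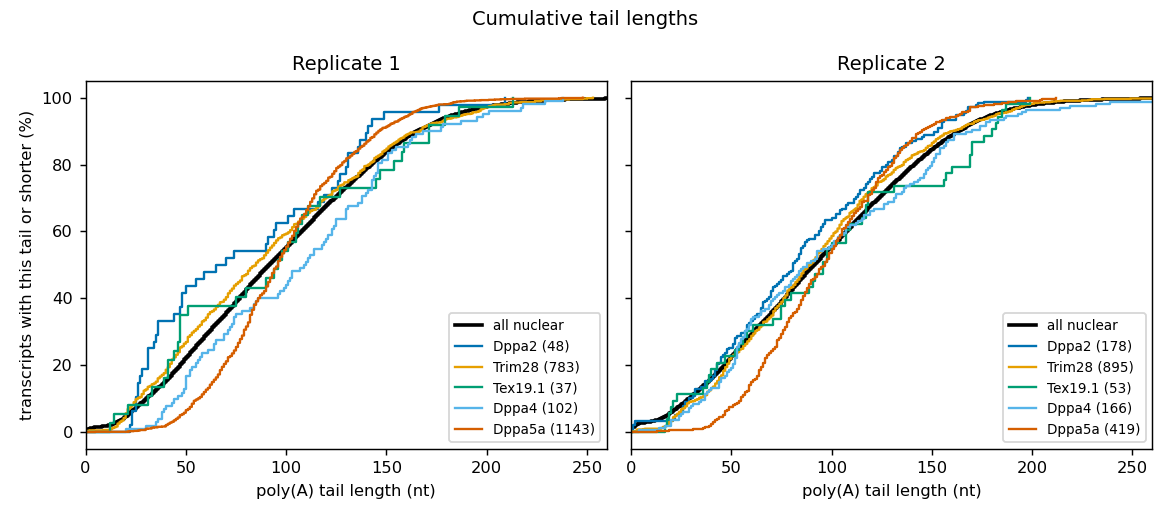
Cumulative share of reads (%) by tail length (nt) in replicates 1 and 2 for the 5 members with at least 10 reads in each replicate and for all nuclear reads in black, with read numbers in parentheses. Dppa5a rises late and steeply in both panels, and Dppa2 lies above the black line over most of the range.

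The number of Dppa5a reads differed strongly between replicates although its tails did not. It had 4640 RPM in replicate 1 and 920 in replicate 2, a ratio of 5.05. Among the 1517 genes this ratio was the 3rd highest. A difference of at least 2-fold in either direction was found for 2 of the 4 members with at least 100 reads, Dppa5a and Dppa2, and for 8.04% of the 1517 genes. Dppa2 went the other way and only just reached the fold, with 195 and 391 RPM, or 2.005 times as many in replicate 2. Dppa4 had 414 and 364 RPM and Trim28 3179 and 1964, ratios of 1.14 and 1.62. Over 175 genes with transcripts up to 1000 nt the median ratio was 1.03, and the highest was 2.68 on the log2 scale. The naïve markers together had 658 and 937 RPM, but this was mostly Zfp42. It alone held 129 of their 162 reads in replicate 1 and 372 of 427 in replicate 2. Wells with more than 1 read gave 8.96% of Dppa5a reads, beside 6.78% of all nuclear reads. The part of these values in the result was not tested. Fewer cells with Dppa5a, less Dppa5a RNA per cell and uneven copying in PCR cannot be told apart in these libraries. The 7 genes together made up 0.861% of nuclear reads in replicate 1 (0.825 to 0.898) and 0.378% in replicate 2 (0.361 to 0.396).

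**Figure D4:**
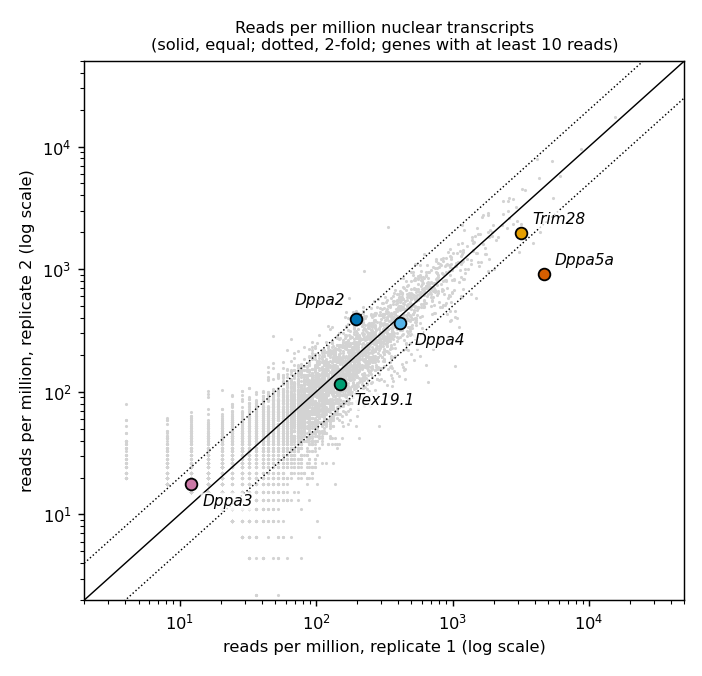
RPM (reads scaled to nuclear reads) in replicate 2 against replicate 1 (both log scales) for genes with at least 10 reads and reads in both replicates, with equality as the solid line and a 2-fold difference as dotted lines. Dppa5a, at 4640 and 920, lies far outside the dotted lines, and Dppa2, at 195 and 391, on one of them.

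Reads of Dppa5a could be shared with near copies, since 10 other annotated genes matched its transcript at 90% identity or more over at least 250 nt. Those copies held 49 reads in all, 40 of them (18 and 22) in Pigp, a gene of GPI anchor synthesis with a transcript that matched over 417 nt. Dppa5b and Dppa5c had 2 reads each. Dppa2 had 6 such copies with 1 read in all, and the 2 copies each of Dppa3 and Dppa4 had 0. Reads on copies were thus few beside the 1562 of Dppa5a, and any reads that mapping had moved to the members themselves were not tested.

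Dppa3 (ENSMUSG00000046323, GRCm38 chr6:122626410-122630272) was rare, with 3 reads in replicate 1 and 8 in replicate 2, or 12.2 and 17.6 RPM. Its tails were 147, 170 and 202 nt in replicate 1. In replicate 2 they were 56, 59, 61, 78, 97, 113, 139 and 170 nt. The groups overlapped, and the means of 171.5 and 89.4 nt (130 nt ± 58.1, SD, n = 2) were too far apart to place the gene against its neighbour Dppa5a. Partner genes of its pathway were better covered. Uhrf1, which Dppa3 binds and which guides Dnmt1 to replicated DNA, had tails of 79.2 and 63.0 nt (84 and 42 reads). The maintenance methyltransferase Dnmt1 had 85.5 and 76.5 nt (77 and 74 reads). Neither lay on the same side of the gene median in both replicates.

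Tex19.1 (ENSMUSG00000039329) lies at GRCm38 chr11:121146143-121148319. Its tail was 76.1 nt in replicate 1 (37 reads) and 81.4 nt in replicate 2 (53 reads), or 78.8 nt ± 3.73 (SD, n = 2). The median read was 96 nt in both replicates, with quartiles of 46 and 145 nt and of 54 and 156 nt. Long tails were a large part of these few reads. Tails over 150 nt were 21.6% in replicate 1 (11.4 to 37.2) and 26.4% in replicate 2 (16.4 to 39.6), where the first interval held the nuclear share of 16.1% and the second lay just above that of 15.3%. Tex19.1 exceeded Trim28 by 1.99 and 2.94 nt, less than either gene moved between its own replicates. Dppa4, the next in the order, exceeded Tex19.1 by 18.9 and 0.708 nt (9.82 nt ± 12.9, SD, n = 2), which is within the spread too. Ubr2, the ubiquitin ligase that binds Tex19.1, had 23 reads and a tail of 74.0 nt.

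Mael (ENSMUSG00000040629, GRCm38 chr1:166201201-166238747) had 5 reads in replicate 1, with tails of 28, 87, 97, 103 and 126 nt. In replicate 2 it had 4 reads, of 52, 57, 113 and 164 nt. Other germline genes had few reads too. Of 26 listed germline genes 18 had reads, 7 had at least 10, and 0 had 10 in each replicate. The 7 were the piRNA pathway gene Piwil2 (113 nt, 19 reads), the synaptonemal complex gene Sycp1 (103 nt, 20 reads), the RNA-binding Dazl (96.8 nt, 14 reads), Rpl10l (94.4 nt, 25 reads), Hormad1 (66.8 nt, 21 reads), Ddx4 (62.3 nt, 19 reads) and Tex15 (9.90 nt, 28 reads). Their median was 94.4 nt, and they reached from percentile 0.420 of the tested genes (Tex15) to 96.9 (Piwil2). For Tex15 the median read was 44.5 nt, well above its geometric mean, and 46.4% of its reads had 1 to 30 nt. Relatives of the members were also rare, since Ooep had 26 reads, Tex19.2 had 2, Khdc3 had 1, and Dppa1, Khdc1a and Khdc1b had 0.

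Trim28 (ENSMUSG00000005566, GRCm38 chr7:12999114-13031035) was the member closest to the middle of all genes. Its tail was 74.1 nt in replicate 1 (783 reads) and 78.5 nt in replicate 2 (895 reads), or 76.3 nt ± 3.06 (SD, n = 2), at percentile 50.1 of the tested genes. Reads ran from 1 to 253 nt and from 1 to 304 nt, with medians of 85 and 89 nt. Tails of 1 to 30 nt were 12.8% in replicate 1 (10.6 to 15.3) and 9.16% in replicate 2 (7.44 to 11.2). Trim28 exceeded Dppa2 by 9.89 and 11.2 nt (10.5 nt ± 0.922, SD, n = 2). The opposite strand of the Trim28 span holds Zbtb45, which had 17 reads of its own. The strand setting of the gene assignment is not given in the sources used here.

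The genes that work with Trim28 in silencing had shorter tails than the median gene in most cases. Of 17 listed partners, 16 had reads and 14 had at least 10, and the median of these was 59.6 nt beside 76.4 nt for all tested genes. Of 13 with at least 10 reads in each replicate, 10 were below the gene median in both replicates and 3 above it in both, beside 35.0% of all genes below and 35.0% above. The histone methyltransferase Setdb1 had 33.9 and 49.3 nt (71 reads) and the KRAB zinc finger gene Zfp57, which guards imprints, 52.9 and 48.3 nt (211 reads). The chromatin remodelers Atrx and Smarcad1 had 43.0 and 36.7 nt (127 reads) and 45.4 and 20.4 nt (74 reads). For Atrx the median read was 81 nt, well above its geometric mean, and 27.6% of its reads had 1 to 30 nt. For Smarcad1 these values were 59 nt and 36.5%. The gap to all genes was smaller for some partners by the median read, where the gene median was 89 nt. It was 47 nt for Setdb1 and 58 nt for Zfp57, but 88 nt for Chd4 and 91 nt for Morc3. On the other side stood the heterochromatin proteins Cbx1, with 93.9 and 88.5 nt (181 reads), and Cbx5, with 96.8 and 80.3 nt (126 reads), together with the deacetylase Hdac2, with 81.8 and 82.6 nt (250 reads). The partners also had longer transcripts, with a median of 3714.5 nt for the longest transcript of a gene beside 3252.5 nt for all tested genes, and the part of transcript length in their tails was not tested.

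**Figure D5:**
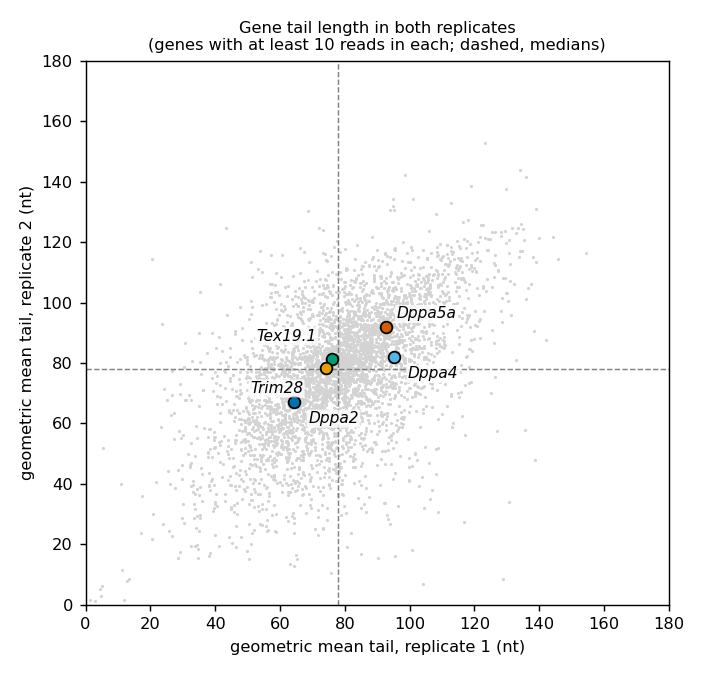
Geometric mean tail (nt) in replicate 2 against replicate 1 for 4286 genes with at least 10 reads in each replicate, with dashed lines at the gene medians of 78.0 and 77.9 nt and 5 members named. Dppa2 lies below both medians, Dppa4 and Dppa5a above both, and Trim28 and Tex19.1 close to where the lines cross.

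Bases other than A were then counted in the tails, since they can mark a transcript for decay or slow its deadenylation. In all nuclear reads 12.2% of tails in replicate 1 and 9.55% in replicate 2 held such a base. Trim28 had 12.3% (10.1 to 14.7) and 7.82% (6.24 to 9.77), and Dppa5a 12.1% (10.3 to 14.1) and 9.79% (7.30 to 13). Dppa4 had 13.7% and 9.04%, Tex19.1 13.5% and 17%, and Dppa2 6.25% (2.15 to 16.8) and 7.30% (4.32 to 12.1). Every interval of these 5 members held the nuclear share of its replicate. The share was higher in replicate 1 than in replicate 2 for all nuclear reads, Trim28, Dppa5a and Dppa4. A base other than A before the last position was held by 8.69% and 7.30% of nuclear tails. It was held by 8.43% (6.68 to 10.6) and 6.26% (4.85 to 8.04) of Trim28 tails and by 9.10% (7.57 to 10.9) and 8.83% (6.47 to 11.9) of Dppa5a tails. Dppa4 had 9.80% and 4.82%, Tex19.1 10.8% and 13.2%, and Dppa2 4.17% and 6.74%. Here too every interval of the 5 members held the nuclear share of its replicate.

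Tails that ended in T, as the Trim28 and Tex19.1 tails shown above, were few. They were 3.96% of Trim28 reads in replicate 1 (2.80 to 5.56) and 1.34% in replicate 2 (0.769 to 2.33), where nuclear reads had 3.93% and 2.58%. Dppa5a had 2.36% (1.63 to 3.42) and 1.19% (0.511 to 2.76), and Dppa2 1 read in all. Dppa4 had 4.90% (2.11 to 11) and 3.61% (1.67 to 7.66), and Tex19.1 5.41% (1.495 to 17.7) and 1.89% (0.334 to 9.94). These wide intervals of Dppa4 and Tex19.1 held the nuclear share. That share lay above the interval of Trim28 in replicate 2 and of Dppa5a in replicate 1, and within it in the other replicate of each gene. In replicate 1 the T of Trim28 stood mostly alone, with 25 ends of 1 T, 5 of 2 and 1 of 3. In replicate 2 as many Trim28 ends had 2 T (6) as had 1 T (6). Among short tails of 6 to 30 nt the share was higher. It was 15.6% for Trim28 in replicate 1 (9.70 to 24.2, 96 tails) and 10.7% in replicate 2 (5.50 to 19.7, 75 tails), beside 18.3% and 13.4% of nuclear tails of that length. Tex19.1 had 3 such ends among 9 short tails, or 33.3% (12.1 to 64.6), an interval that held the nuclear share of 15.2% over both replicates. Dppa2 had 0 of 21, Dppa4 0 of 14 and Dppa5a 0 of 13. A count of 0 among so few allows shares of up to 15.5%, 21.5% and 22.8%, so a difference from the nuclear share was not detectable at this depth.

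Whole tail distributions were compared last, to name the genes whose tails were most like those of each member. The measure was the largest gap between 2 cumulative distributions over pooled reads, among 1612 protein-coding genes with at least 30 reads in each replicate, and it serves as a description only. Trim28 was closest to Hnrnpf (0.0188), Brix1 (0.0215) and Serbp1 (0.0242), and its gap to all nuclear reads was 0.0400. Dppa2 was closest to the chaperone gene Hsp90aa1 (0.0385), to Cct2 (0.0391) and to Rab7 (0.0402), and it lay 0.0955 from all nuclear reads. Dppa4 was closest to Nup133 (0.0435), Cacybp (0.0446) and Hnrnpk (0.0452), at 0.0657 from all nuclear reads. Dppa5a lay farthest from all nuclear reads, at 0.165, and its nearest genes were the RNA-binding Ybx1 (0.0556), Ilf2 (0.0631) and Ywhae (0.0643). Tex19.1, with the fewest reads of the 5, was closest to Eif4a3 (0.0689), Smc2 (0.0699) and Ubxn1 (0.0722), at 0.102 from all nuclear reads. No member was among the 3 nearest genes of another.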

How the data were processed

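PAIso-seq was made by the authors from total RNA of 1 wild-type sample with 2 barcoded replicates. The authors built circular consensus reads with ccs, split them by barcode, mapped them to mm10 with minimap2 2.17, took the clipped bases beyond the 3′ end as the tail, discarded reads without a tail and assigned genes with featureCounts 2.0.1 (versions from the submitters' processing notes). The deposited table gives per read the barcode, gene, number of passes and base counts of the tail (A, C, G, T) with its sequence, without normalization. The paper also describes a filter against tails with few A among their first bases. No such filter was applied here, and the nuclear reads used include 2090 tails of 1 nt in replicate 1 and 7510 in replicate 2. Tail length here was the number of A plus other bases. A short tail made of genomic A, or a read copied in PCR, cannot be recognised, since there are no molecular identifiers and no positions. Intervals are 95% Wilson intervals and, like limits from counts of 0, cover counting error only.

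Reads with at least 7 passes were used, which 354259 of 378458 reads of replicate 1 and 593361 of 635217 of replicate 2 had. Genes and coordinates came from GENCODE vM21 (GRCm38), and mitochondrial genes were kept apart. Copies were found with BLAST 2.17.0. Values were computed in Python 3.11.15 (scipy 1.17.1, pandas 2.3.3, numpy 2.4.6) and drawn with matplotlib 3.10.9. On simulated data only the step that gives the geometric mean tail of a gene was tested. The members, gene lists and markers were chosen with earlier results of these data known. Named genes are the 7 members, list genes with at least 10 reads and the 3 nearest genes of each member with at least 30 reads in each replicate; list genes with fewer reads and Zbtb45 are named in addition. The 11 alternatives changed the pass filter, length, shortest tail, summary, read minimum, background, shared wells and replicates.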

Additional observations from a re-analysis of the deposited data

How the results depend on the processing

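The count of members below the gene median, 1 of 6, became 3 with tails of at least 15 nt, 2 with the median or the arithmetic mean as the summary and 2 of 5 with at least 20 reads per gene. Leaving out either replicate gave 1 to 3. The member median minus the gene median, 6.63 nt, was 1.05 nt with only wells that held 1 read, where 5 members were tested, and ranged from -1.86 nt (without replicate 2) to 4.64 nt (without replicate 1), each with 5 members tested. Where 5 members were tested, Dppa3 was the one left out and the value was that of Tex19.1. It was 2.64 nt with at least 20 reads and 2.66 nt with at least 15 passes. With all 6 members tested, the alternatives ranged from 2.35 nt (tails of at least 15 nt) to 8.31 nt (no minimum of passes). Beyond the change of members in some settings, the cause of the changes was not tested. The share of nuclear reads, 0.548%, ranged from 0.378% to 0.861% between the replicates. In all, 21 alternative values of these results moved by less than the spread between replicates or, for the count, less than 1.5 times. They include those without replicate 1 and both replicates' shares, which were set against the SD of the same 2 replicates. Their place in this count thus does not show stability. Of the remaining values, 6 moved further and 1 changed sign.

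Under all 11 alternatives Dppa2 stayed below the gene median of the same setting, by -13.7 to -8 nt, and Dppa4 (5.31 to 17.1 nt) and Dppa5a (5.12 to 17 nt) above it. Tex19.1 was below in 2 and above in 9, and Trim28 below in 5 and above in 6. Dppa3 was above in the 6 settings that left it enough reads. No paired analysis was possible because the sample formed a single group. Depth limits Mael and Dppa3 most, with 9 and 11 reads. Wells that gave more than 1 read held 7.23% of the members' reads and 6.78% of all nuclear reads.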
